A study of Homo sapiens with 6 samples.

Results

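Genes of the interferon response, of nuclear factor kappa B (NF-kB) signalling and of antigen presentation were followed in C4-2, a line of human prostate cancer cells that descends from LNCaP. They were chosen by symbol, as protein-coding genes whose names match the families of HLA, IFI, IFIT, IFITM, OAS, MX, GBP, ISG, IRF, STAT, NFKB, REL, TAP, TAPBP, TNFAIP, CXCL and CCL genes, or B2M, CGAS and STING1. Of 142 such symbols in the human gene table, 79 had a named probeset, out of 14812 genes measured, and each was read from its brightest probeset. The other 63 are not analysed here. They include every HLA gene, TAP1, TAP2, OAS1 and all TNFAIP genes, so that 3 genes (B2M, TAPBP and TAPBPL) stand for antigen presentation.

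RNA came from 6 cultures grown in medium with hormones, 2 for each of 3 groups. In the knockdown group DNA-PKcs had been depleted for 96 h with an siRNA pool against PRKDC. A second group was exposed for 24 h to 1 µM NU7441, an inhibitor of the kinase activity of DNA-PKcs, and the third was a control given DMSO. The protocol also names a control siRNA pool, but the control samples are labelled only with DMSO, so the effects of depletion, of transfection and of the length of treatment cannot be told apart in the knockdown group. The replicates are called biological in the labels, and all come from 1 cell line. PRKDC itself is not analysed here, so the labels alone define the knockdown.

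DNA-PKcs is the catalytic subunit of DNA-PK, a kinase that joins broken DNA ends and that has also been described as a sensor of DNA in the cytosol. In the interferon system, sensors of foreign nucleic acid act through adaptors such as STING1 on the factors IRF3 and IRF7, which switch on interferon genes; interferon then acts through its receptors, JAK kinases and STAT and IRF9 factors on a large set of effector genes. NF-kB dimers of REL and NFKB proteins control cytokines and chemokines, and class I molecules with their light chain B2M show peptides to T cells. LNCaP, the parent line, is known for a loss of JAK1 function.

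All values are intensities on a linear scale, with a lower limit of 16, read on Affymetrix Human Gene ST arrays. The median over all probesets was 27.6 and 28.4 after knockdown, 24.6 and 26.0 under NU7441, and 31.5 and 31.6 in controls, lower after both treatments. Between the arrays of a group the correlation was 0.970 for knockdown, 0.937 for NU7441 and 0.988 for control. Over all tested genes the median log2 fold change was −0.23 for NU7441 and −0.09 for knockdown, and after quantile normalization it was 0.01 for both. The files hold no detection calls, and 41 of the 79 members, among them 25 of 35 chemokines, stayed under 38.2, the median of tested genes, on every array. All 7 measured luminal prostate markers exceeded the median of genes on every array, whereas 1 to 3 of 7 leukocyte markers did.

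The promoters of 5 members that passed the test are shown first, all of them with letters of the interferon-stimulated response element. Members that passed without such letters are not printed, and neither is IFITM1, which passed and holds such letters. RefSeq promoters (GRCh38.p14) were matched for 58 of the 79 members, and the 250 bases before the start of each were searched on both strands. The letters searched for the interferon-stimulated response element (ISRE) were GAAA, any 2 bases and GAAA, those for the gamma-activated site (GAS) were TTC, any 3 bases and GAA, and NF-kB sites were searched by their kB consensus; matches could overlap. ISRE letters were present in 14 of the 58 members (24.1%), against 2.47% of 9704 protein-coding genes tested, GAS letters in 19.0% against 5.95%, and kB letters in 27.6% against 5.94%. Members were chosen by the names of interferon and NF-kB families, so higher shares were built into the choice. They say nothing about the arrays. The 250 bases before the start of 5 members follow, 5′ to 3′ along the gene, with every match in capitals.
B2M: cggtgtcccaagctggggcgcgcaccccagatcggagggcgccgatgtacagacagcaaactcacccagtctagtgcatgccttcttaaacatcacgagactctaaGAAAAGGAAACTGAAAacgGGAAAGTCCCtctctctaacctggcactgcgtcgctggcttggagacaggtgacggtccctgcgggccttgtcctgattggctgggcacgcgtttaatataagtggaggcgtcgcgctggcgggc
TAPBP: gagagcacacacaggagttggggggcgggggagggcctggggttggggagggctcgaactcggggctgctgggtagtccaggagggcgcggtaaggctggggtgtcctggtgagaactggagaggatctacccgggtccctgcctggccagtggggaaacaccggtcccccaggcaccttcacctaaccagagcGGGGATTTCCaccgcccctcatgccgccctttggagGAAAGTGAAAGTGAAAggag
ISG15: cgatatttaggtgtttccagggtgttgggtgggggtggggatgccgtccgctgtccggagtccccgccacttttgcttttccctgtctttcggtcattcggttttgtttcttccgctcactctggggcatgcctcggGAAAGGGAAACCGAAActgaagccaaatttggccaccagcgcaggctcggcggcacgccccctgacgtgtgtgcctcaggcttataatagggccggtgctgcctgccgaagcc
IFIH1: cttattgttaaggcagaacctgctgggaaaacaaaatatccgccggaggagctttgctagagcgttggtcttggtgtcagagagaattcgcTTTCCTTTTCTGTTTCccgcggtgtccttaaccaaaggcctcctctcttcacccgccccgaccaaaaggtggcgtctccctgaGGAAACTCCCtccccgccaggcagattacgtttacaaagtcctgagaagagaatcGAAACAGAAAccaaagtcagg
IFIT3: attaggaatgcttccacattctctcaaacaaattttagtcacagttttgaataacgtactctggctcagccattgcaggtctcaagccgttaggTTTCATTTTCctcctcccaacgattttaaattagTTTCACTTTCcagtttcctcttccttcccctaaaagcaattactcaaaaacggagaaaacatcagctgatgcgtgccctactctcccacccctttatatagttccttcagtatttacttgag

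These windows lie at chr15:44711267-44711516 on the plus strand for B2M, chr6:33314079-33314328 on the minus strand for TAPBP, chr1:1013247-1013496 on the plus strand for ISG15, chr2:162318685-162318934 on the minus strand for IFIH1 and chr10:89327747-89327996 on the plus strand for IFIT3. B2M, TAPBP and ISG15 each hold a pair of overlapping ISRE matches, and in B2M and TAPBP a kB match lies nearby. IFIH1 holds 3 ISRE matches and 1 kB match, and IFIT3 holds 2 ISRE matches. A match describes letters only. Of the 14 members with ISRE letters 3 rose (B2M, TAPBP and ISG15) and 3 fell (IFIH1, IFIT3 and IFITM1) under NU7441, and of the 58 members with a promoter 3 rose and 11 fell. Of 11 members with GAS letters 0 rose and 4 fell, and of 16 with kB letters 2 rose and 4 fell. Among all genes 10.8% rose and 22.4% fell under NU7441, and these groups of members are too small to compare shares. NFKB2, NFKBIL1, IRF4 and CXCL12 fell and held 0 matches of any of these kinds.

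Under NU7441 B2M, TAPBP, ISG15 and IRF7 rose, while 3 of 6 NF-kB genes, 2 of 3 sensing genes, 2 effectors, 2 interferon regulatory factors and 6 chemokines fell. In NU7441-treated cells 4 members rose and 15 fell against control, in limma's moderated test adjusted over all genes with a threshold of 0.05. That is 5.06% higher and 19.0% lower, against 10.8% and 22.4% of all genes, and 24.1% against 33.2% in either direction. The shares of members were thus no higher than those of all genes. Both NU7441 arrays lay above both control arrays for 16 members and below them for 35, which is 20.3% and 44.3% of members against 22.7% and 47.3% of all genes. The median log2 fold change of the members was −0.19, and that of all genes −0.23. The NU7441 shift varied with brightness over all genes, with a median of −0.29 for genes with a mean log2 intensity under 5 and 0.21 for those over 8. Of the members that rose, B2M and ISG15 were over 8, and of the 15 that fell 8 were under 5 and 4 between 5 and 6. The sign of the member median depended on scaling, at 0.10 after quantile normalization and 0.13 after median centring of the arrays. After quantile normalization 7 members were called higher, beside 14.3% of all genes, and 9 lower, beside 13.8%. The arrays read bulk RNA, so fewer cells that express a gene and less RNA per cell cannot be told apart.

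After knockdown 1 member, B2M, rose and 0 fell, against 0.284% of all genes higher and 0.486% lower. At an unadjusted p under 0.05, limma placed 6 members higher and 5 lower, which is 7.59% and 6.33% against 6.68% and 12.9% of all genes. Both knockdown arrays lay above both control arrays for 20.3% of members and below them for 34.2%, against 23.4% and 38.2% of all genes. The median log2 fold change of the members was −0.07, that of all genes −0.09, and after quantile normalization it was 0.05 for the members. Both comparisons share the control arrays, so their values are given side by side below and not as support for each other. Fitting the compared groups alone, without the more variable NU7441 arrays, called 4 members higher (B2M, IFITM2, IRF7 and ISG15) and 7 lower (CCL3L1, IFIT3, IRF3, IRF9, NFKB2, OASL and STING1) after knockdown. Over all genes that fit called 1021 higher (6.89%) and 1822 lower (12.3%).

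**Figure D1:**
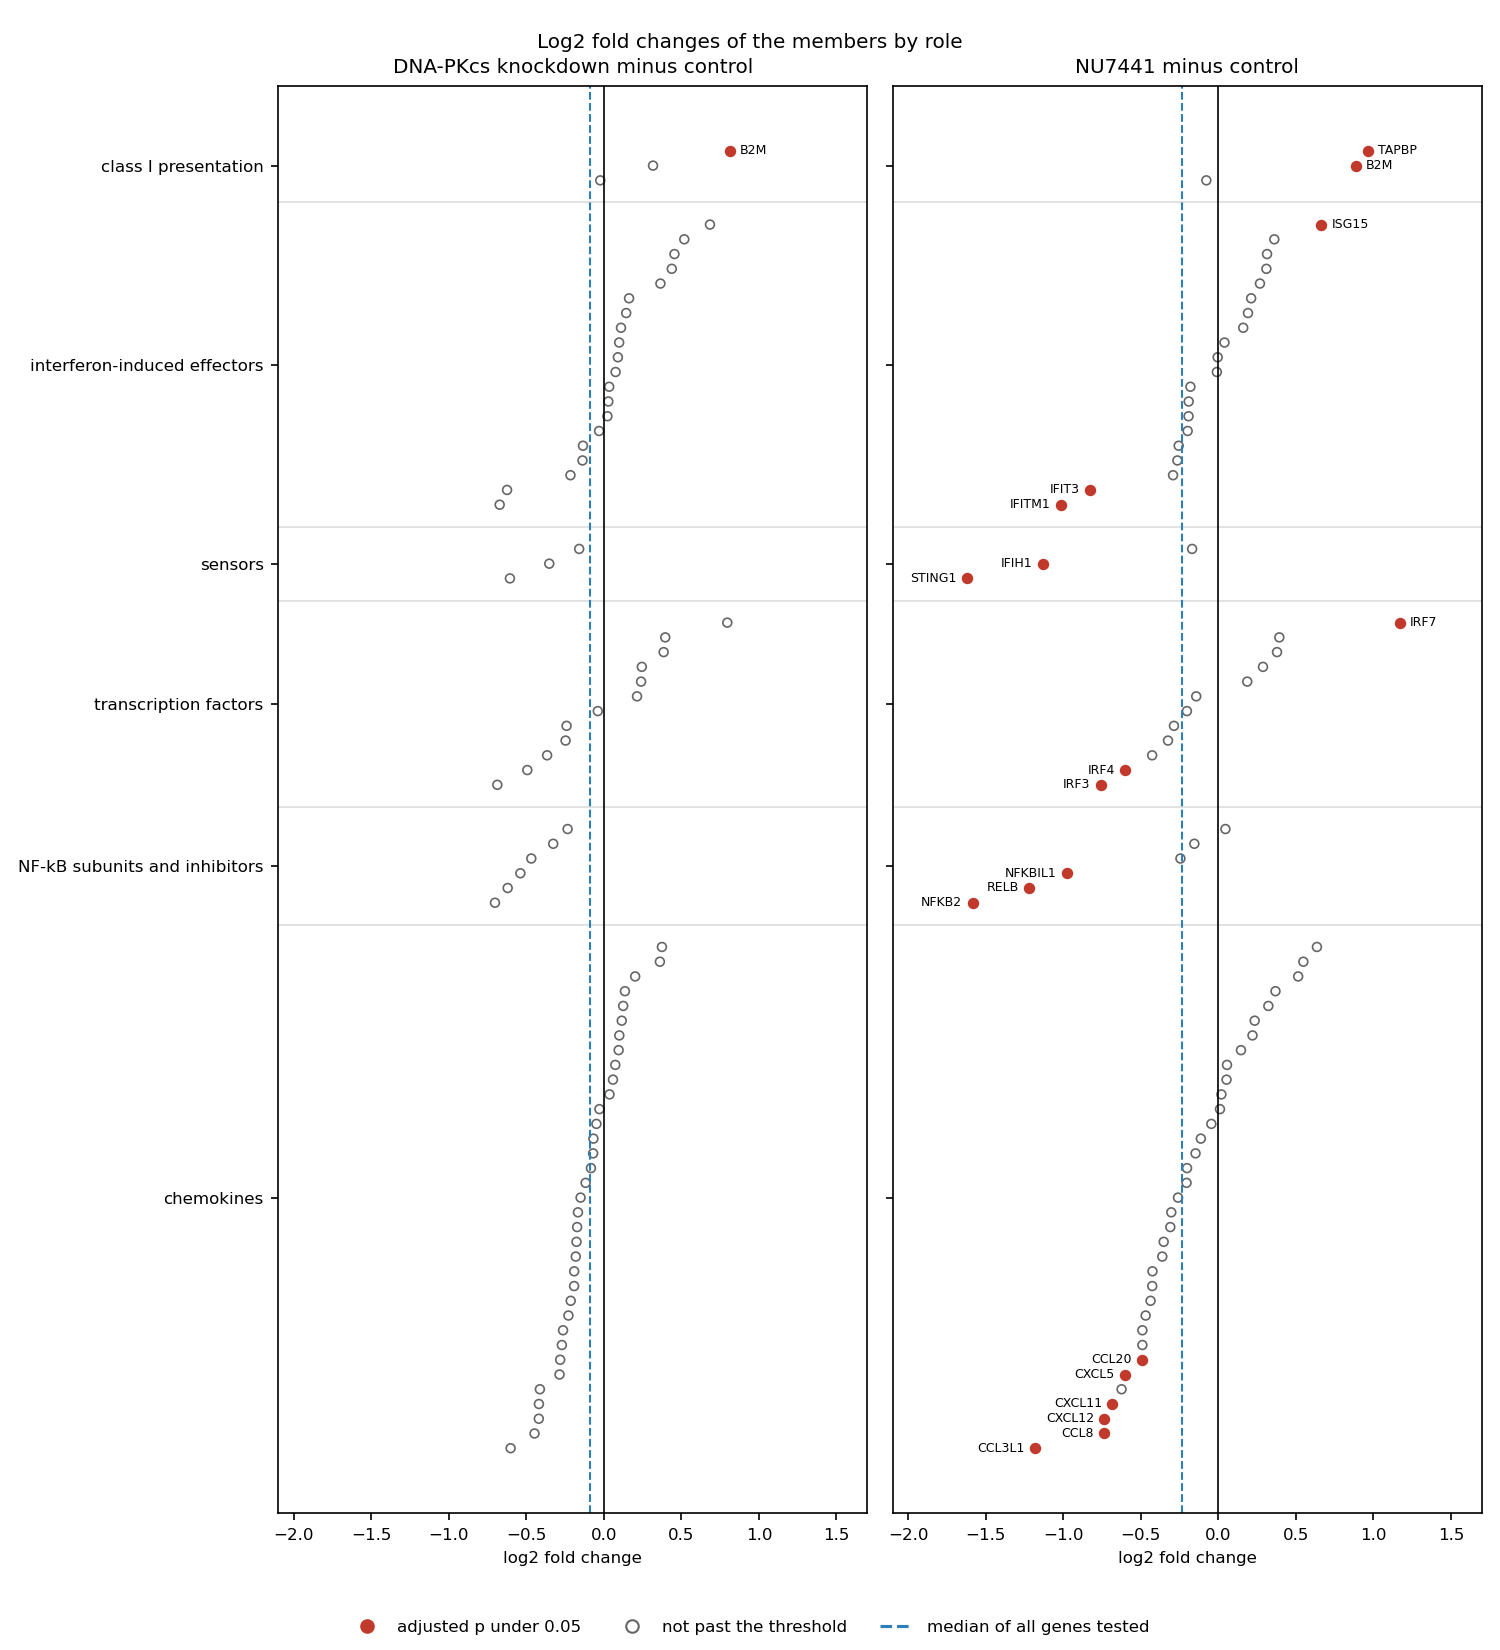
Log2 fold changes against control (horizontal axis) of all 79 members, 1 point per member, sorted within each role, for knockdown (left) and NU7441 (right). Filled points passed an adjusted p of 0.05, and the dashed line is the median of all genes tested. Under NU7441 4 members lie to the right and 15 to the left as filled points, and after knockdown B2M is the only filled point.

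Of the 3 class I presentation genes, 2 rose under NU7441 and 1 after knockdown, beside 10.8% and 0.284% of all genes. With 3 genes a share cannot be compared with these. B2M encodes the light chain shared by all class I molecules. It read 801 and 813 after knockdown, 827 and 872 under NU7441, and 473 and 447 in controls. All 4 treated arrays were far above both control arrays. B2M rose 1.75-fold after knockdown (log2 fold change 0.81 ± 0.10, moderated SE, n = 2 per group, adjusted p = 0.0162) and 1.85-fold under NU7441 (0.89 ± 0.10, adjusted p = 6.85e-04). Under NU7441 the call held in all 14 alternative analyses, with adjusted p of at most 0.0127. After knockdown the log2 fold change stayed between 0.77 and 0.85 without either control replicate or either knockdown replicate. Those fits leave 1 array in a group, and B2M lost its call there, as did every other gene called higher. Without the mean-variance trend the call was lost as well (adjusted p = 0.107), and that fit called 0 of 14812 genes higher. These losses are therefore not particular to B2M.

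A second, dimmer probeset for B2M read 270 and 272 after knockdown, 325 and 372 under NU7441, and 150 and 143 in controls. Its log2 differences from control were 0.89 and 1.25 for knockdown and NU7441. Both probesets thus separated the treated arrays from the controls.

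TAPBP encodes tapasin, which holds empty class I molecules at the peptide transporter until a peptide binds. Its intensity was 145 and 163 after knockdown, 244 and 236 under NU7441, and 141 and 107 in controls. The NU7441 arrays stood clear of all others, while the knockdown arrays lay close above the controls. TAPBP rose 1.95-fold under NU7441 (0.96 ± 0.19, adjusted p = 0.00644), and after knockdown its log2 fold change was 0.32 ± 0.19 (adjusted p = 0.390). The NU7441 call was lost without control replicate 2 (0.76, adjusted p = 0.0924). The 5 TAPBP probesets gave NU7441 differences from 0.89 to 1.09 and knockdown differences from 0.15 to 0.32; they read 1 gene and are not independent. TAPBPL, a tapasin relative that edits peptides, was at −0.02 ± 0.31 after knockdown and −0.08 ± 0.31 under NU7441.

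**Figure D2:**
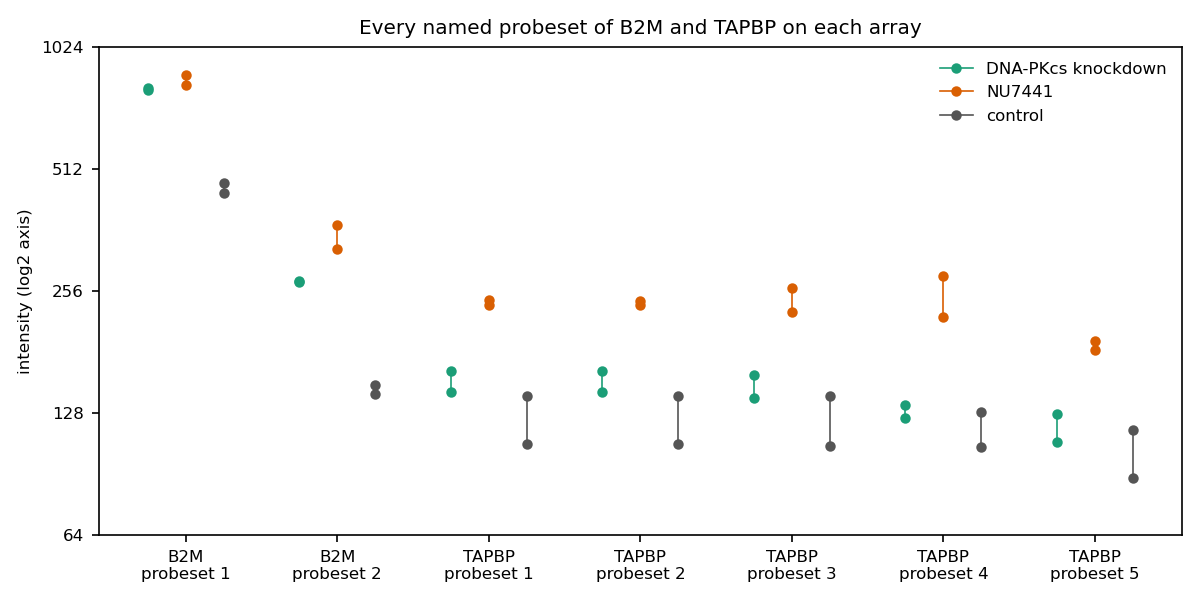
Intensity (log2 vertical axis) of each named probeset of B2M and TAPBP, with 1 point per array joined within a group, in the order knockdown, NU7441 and control. Both B2M probesets are higher in both treated groups, and in all 5 TAPBP probesets the NU7441 arrays are the highest.

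Interferon-induced effectors moved both ways or did not pass. ISG15, a ubiquitin-like protein that is attached to other proteins after interferon, read 588 and 667 after knockdown, 752 and 711 under NU7441, and 415 and 515 in controls. The treated arrays were all above both controls, though the controls lay some way apart. ISG15 rose 1.58-fold under NU7441 (0.66 ± 0.13, adjusted p = 0.00620). After knockdown its log2 fold change was 0.44 ± 0.13 (adjusted p = 0.116), which passed with median centring, with the compared groups alone and without either NU7441 replicate. Without control replicate 1 the NU7441 call was lost (0.51, adjusted p = 0.0674).

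IFITM1 and IFIT3 fell under NU7441. IFITM1 encodes a membrane protein that hinders virus entry, and its intensities were 35.8 and 32.5 after knockdown, 16.2 and 23.7 under NU7441, and 41.1 and 38.2 in controls. One NU7441 array was thus near the lower limit of the scale, which compresses the difference. IFITM1 fell 2.02-fold (−1.01 ± 0.24, adjusted p = 0.0137), and IFIT3, a partner of the RNA-binding IFIT1, fell by 0.83 ± 0.16 on the log2 scale (adjusted p = 0.00572). IFIT3 was dim, at 17.6 and 19.8 after knockdown, 16.03 and 17.5 under NU7441, and 30.8 and 28.7 in controls, and after knockdown it was at −0.67 ± 0.16 (adjusted p = 0.0774). The sizes depend on the limit of 16: with 16 taken off and 1 added the NU7441 values were −2.92 for IFITM1 and −3.21 for IFIT3. Both calls held after quantile normalization and median centring, and both were lost without control replicate 1 or 2 (adjusted p from 0.0503 to 0.122).

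The other 17 effectors passed in neither comparison with control. IFITM3, which blocks virus fusion in endosomes, read 193 and 260 after knockdown, 274 and 297 under NU7441, and 232 and 262 in controls. The knockdown and control arrays overlapped and the NU7441 arrays lay just above both groups, with log2 fold changes of −0.14 ± 0.18 for knockdown and 0.21 ± 0.18 for NU7441. Its close relative IFITM2 was at 173 and 196 after knockdown, 156 and 139 under NU7441, and 114 and 116 in controls, and its knockdown difference of 0.68 ± 0.18 had an adjusted p of 0.0912. IFITM2 passed after knockdown once the arrays were centred on their medians or the NU7441 arrays were left out. IFITM genes are similar in sequence, so their probes may read related transcripts. IFIT1, IFIT2, IFI44, IFI44L and MX2, genes commonly used as interferon response markers, read between 16.6 and 28.8 on every array, and of the 20 effectors 10 stayed under the median of tested genes throughout.

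Of 3 sensing genes 2, STING1 and IFIH1, fell under NU7441, beside 22.4% of all genes, and 3 genes are too few to compare shares. STING1, the adaptor that relays the cytosolic DNA signal of CGAS, had intensities of 284 and 218 after knockdown, 211 and 71.6 under NU7441, and 442 and 324 in controls. Every treated array was below both controls, and the NU7441 arrays differed from each other about as much as from the controls. STING1 fell 3.08-fold under NU7441 (−1.62 ± 0.41, adjusted p = 0.0165), and was at −0.61 ± 0.41 after knockdown (adjusted p = 0.449). The size under NU7441 rested on its arrays, at −2.40 without NU7441 replicate 1 and −0.84 without replicate 2. The call was lost without control replicate 1 or 2 (adjusted p = 0.123 and 0.0684), without knockdown replicate 1 or 2 (0.0561 and 0.0564) and with the compared groups alone (0.0549).

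IFIH1 encodes MDA5, a sensor of long double-stranded RNA. It read 49.7 and 47.5 after knockdown, 19.9 and 40.4 under NU7441, and 57.3 and 67.0 in controls. Here too the NU7441 arrays lay apart from each other, with both below every other array. IFIH1 fell 2.19-fold under NU7441 (−1.13 ± 0.33, adjusted p = 0.0285) and was at −0.35 ± 0.33 after knockdown. The value was −0.62 without NU7441 replicate 1 and −1.64 without replicate 2, and the call was lost without either control replicate (adjusted p = 0.132 and 0.200), without either knockdown replicate (0.0691 and 0.0692), with median centring (0.0769), with 16 taken off (0.0614) and with the compared groups alone (0.0682). CGAS, the enzyme that senses DNA in the cytosol, was dim, between 18.6 and 26.9 on all arrays, with differences of −0.16 ± 0.23 for knockdown and −0.17 ± 0.23 for NU7441.

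Among transcription factors IRF7 and IRF3, which act together downstream of these sensors, moved in opposite directions under NU7441. IRF7 read 79.7 and 88.3 after knockdown, 129 and 91.3 under NU7441, and 51.4 and 45.4 in controls. All 4 treated arrays exceeded both controls. IRF7 rose 2.25-fold under NU7441 (1.17 ± 0.24, adjusted p = 0.00774), and after knockdown its log2 fold change was 0.80 ± 0.24 (adjusted p = 0.123), which passed with the compared groups alone and without either NU7441 replicate. Without control replicate 1 or 2 the NU7441 call was lost (adjusted p = 0.0652 and 0.0976).

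IRF3 was at 89.2 and 78.1 after knockdown, 65.5 and 73.5 under NU7441, and 104 and 133 in controls. The groups did not overlap, with NU7441 lowest and control highest. IRF3 fell 1.69-fold under NU7441 (−0.76 ± 0.22, adjusted p = 0.0276) and was at −0.49 ± 0.22 after knockdown (adjusted p = 0.257). Its NU7441 call was lost with median centring (adjusted p = 0.156), with the compared groups alone (0.0541), without either control replicate (0.106 and 0.279) and without either knockdown replicate (0.0554 and 0.0550). Also lower was IRF4, a lymphoid factor, which was dim, at 17.4 and 18.1 on the NU7441 arrays and 26.2 and 27.6 on the control arrays. IRF4 fell by 0.60 ± 0.18 on the log2 scale, a call lost after quantile normalization (−0.32, adjusted p = 0.215), with median centring (0.247), with 16 taken off (0.0539) and without either control replicate (0.135 and 0.175).

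Of the other 9 factors none passed in limma's test, and 1 was lower at an unadjusted p under 0.05 in each comparison with control: IRF9 after knockdown and STAT5A under NU7441, both named after their values were seen. STAT3, which carries signals of interleukin-6 and related cytokines, read 157 and 206 after knockdown, 182 and 177 under NU7441, and 137 and 136 in controls. Its differences were 0.40 ± 0.19 for knockdown and 0.39 ± 0.19 for NU7441 (adjusted p = 0.276 and 0.127), although the treated arrays were all above the controls. IRF9, a DNA-binding factor of the interferon response, was at −0.69 ± 0.25 after knockdown (adjusted p = 0.190) and −0.29 ± 0.25 under NU7441. IRF1, IRF2, IRF5, IRF8, STAT4, STAT5A and STAT5B lay between −0.43 and 0.39 in both comparisons.

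**Figure D3:**
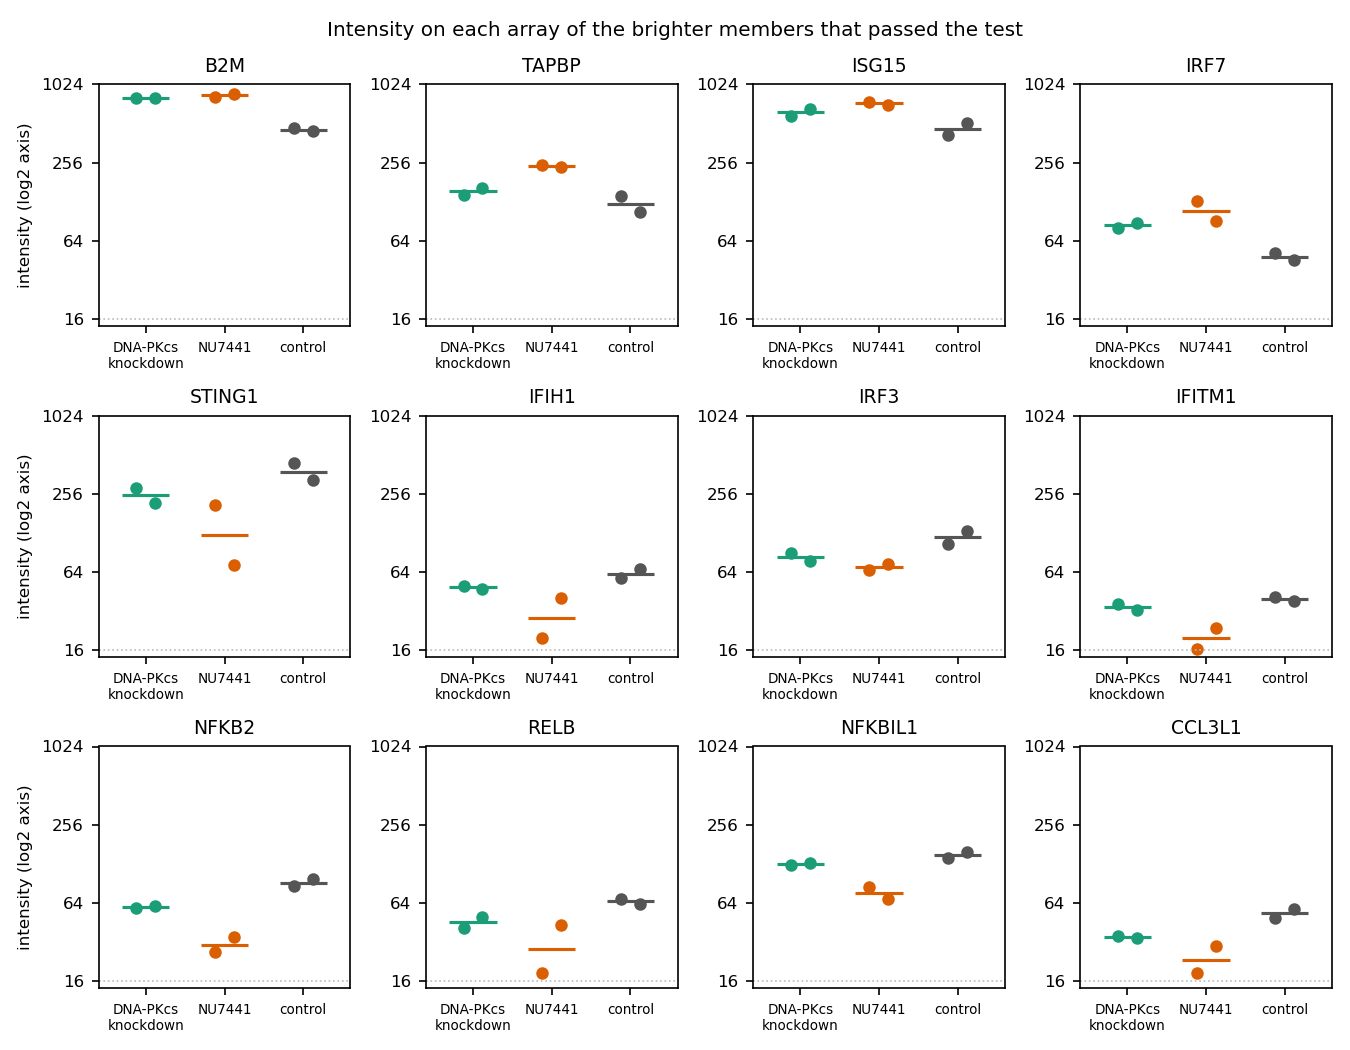
Intensity (log2 vertical axis, the same range in each panel) on each array of the 12 members that passed a test and exceeded the median of tested genes in at least 1 group; bars are group means of log2 values and the dotted line is the lower limit of 16. B2M, ISG15 and IRF7 are higher on all 4 treated arrays than in controls, whereas NFKB2 and STING1 are lower on all 4.

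Of 6 NF-kB genes 3 fell under NU7441: NFKB2 and RELB, which form the dimer of the alternative pathway, and NFKBIL1. Of all genes 22.4% fell, and 6 genes are too few to compare shares. NFKB2 encodes p100, the precursor of p52. It read 58.6 and 60.3 after knockdown, 26.8 and 34.6 under NU7441, and 85.7 and 97.4 in controls. The 3 groups formed separate steps. NFKB2 fell by 1.58 ± 0.24 on the log2 scale under NU7441 (adjusted p = 0.00225) and was at −0.62 ± 0.24 after knockdown (adjusted p = 0.207). Only the analysis without control replicate 2 lost the NU7441 call (adjusted p = 0.0551).

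RELB, the partner of p52, was at 40.9 and 49.6 after knockdown, 18.4 and 42.8 under NU7441, and 67.9 and 63.0 in controls. One NU7441 array was close to the lower limit and the other lay between the knockdown arrays. RELB fell 2.33-fold under NU7441 (−1.22 ± 0.37, adjusted p = 0.0312), a value of −0.61 without NU7441 replicate 1 and −1.83 without replicate 2. That call was lost without either control replicate (adjusted p = 0.177 and 0.154), without either knockdown replicate (0.0739 in both), with median centring (0.0767), with 16 taken off (0.0732) and with the compared groups alone (0.0728). After knockdown RELB was at −0.54 ± 0.37.

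NFKBIL1 is an ankyrin repeat protein named for its likeness to the inhibitors of NF-kB. Its intensities were 124 and 130 after knockdown, 84.0 and 68.8 under NU7441, and 143 and 157 in controls. The NU7441 arrays were clearly the lowest. It fell 1.97-fold under NU7441 (−0.98 ± 0.20, adjusted p = 0.00716), a call lost without control replicate 1 or 2 (adjusted p = 0.0707 and 0.103). NFKB1, REL and RELA, the subunits of classical NF-kB, were at −0.16 ± 0.22, −0.24 ± 0.32 and 0.05 ± 0.26 under NU7441, and at −0.47 ± 0.22, −0.70 ± 0.32 and −0.33 ± 0.26 after knockdown, with none past the threshold.

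Chemokines were mostly at the dim end of the scale, and 6 of 35 fell under NU7441, or 17.1% against 22.4% of all genes. CCL3L1, an attractant of monocytes and T cells that is nearly identical to CCL3, read 35.4 and 34.3 after knockdown, 18.3 and 29.8 under NU7441, and 49.1 and 56.9 in controls. Both treated groups were below the controls. CCL3L1 fell 2.27-fold under NU7441 (−1.18 ± 0.28, adjusted p = 0.0126), and was at −0.60 ± 0.28 after knockdown (adjusted p = 0.269). Its probes may read CCL3 as well, and the call was lost without control replicate 1 or 2 (adjusted p = 0.0852 and 0.129).

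The remaining chemokines that passed under NU7441 were CCL8 (−0.74 ± 0.25), CXCL12 (−0.73 ± 0.23), CXCL11 (−0.68 ± 0.18), CXCL5 (−0.60 ± 0.16) and CCL20 (−0.49 ± 0.14). On the NU7441 arrays these 5 read between the limit of 16 and 24.01, and on the control arrays between 23.8 and 38.9. CXCL12 is known as a stromal chemokine. The summed intensity of 3 stromal markers was 136 and 124 after knockdown, 54.5 and 69.7 under NU7441, and 134 and 149 in controls. Their log2 fold changes under NU7441 ranged from −1.88 to 0.12, so they did not all fall. All cultures were of 1 cell line, and the part of these markers in the chemokine values was not tested. None of the 5 calls held after quantile normalization, after median centring or without either control replicate. CXCL16, a chemokine made as a membrane protein, was brighter, at 117 and 123 after knockdown, 119 and 144 under NU7441, and 100.5 and 109 in controls. Its differences were 0.20 ± 0.19 for knockdown and 0.32 ± 0.19 for NU7441 (adjusted p = 0.601 and 0.221). CXCL8, CXCL10 and CCL2, chemokines often induced by NF-kB or interferon, read between 16.9 and 31.7 on all 6 arrays and did not pass. The other 25 chemokines ranged from the limit of 16 to 62.2 with log2 fold changes between −0.62 and 0.64 under NU7441 and between −0.42 and 0.37 after knockdown.

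The direct comparison of knockdown with NU7441 asked whether these genes differed between the treated groups. The groups also differ in length of treatment (96 h against 24 h) and, as labelled, in transfection. A difference can therefore not be assigned to depletion against inhibition alone. In knockdown cells 4 members were higher than in NU7441-treated cells and 0 were lower, which is 5.06% against 5.83% of all genes higher, 2.84% lower and 8.67% in either direction. Both knockdown arrays lay above both NU7441 arrays for 31.6% of members and below them for 15.2%, against 32.9% and 19.6% of all genes. NFKB2 was 1.95-fold higher after knockdown than under NU7441 (0.96 ± 0.24, adjusted p = 0.0403), and NFKBIL1 1.67-fold (0.74 ± 0.20, adjusted p = 0.0491). The other members called were dim. GBP5, a guanylate-binding protein, was higher by 0.81 ± 0.20 on the log2 scale (adjusted p = 0.0374), at 35.2 and 28.2 after knockdown and 16.01 and 20.1 under NU7441. CXCL11 was higher by 0.72 ± 0.18 (adjusted p = 0.0412), at 25.5 and 28.9 on the knockdown arrays, whereas the NU7441 arrays read the limit of 16 and 17.01. The sizes of both differences depend on that limit, and with 16 taken off and 1 added they were 2.84 for GBP5 and 3.09 for CXCL11.

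None of these 4 calls held with median centring, with the compared groups alone, or without any 1 control or knockdown replicate. Without a knockdown replicate nearly all genes lost their call, so that loss is not particular to these 4. With the replicate number as a block CXCL11 alone held. After quantile normalization NFKB2 was at 0.79 (adjusted p = 0.0579) and NFKBIL1 at 0.61 (0.0950), GBP5 and CXCL11 still passed, and TAPBP was lower after knockdown than under NU7441. In the deposited scale TAPBP stood at −0.65 ± 0.19 with an adjusted p of 0.0654. Without NU7441 replicate 2, 15 members were higher and 5 lower, beside 23.1% and 11.4% of all genes. Without its replicate 1 the counts were 5 and 4, beside 9.69% and 7.71% of all genes. B2M differed by −0.07 ± 0.10, ISG15 by −0.22 ± 0.13, IRF7 by −0.37 ± 0.24 and STING1 by 1.02 ± 0.41 (adjusted p from 0.144 to 0.652), none of them past the threshold. STING1 passed as higher after knockdown without NU7441 replicate 1, and IRF7 as lower without NU7441 replicate 2.

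**Figure D4:**
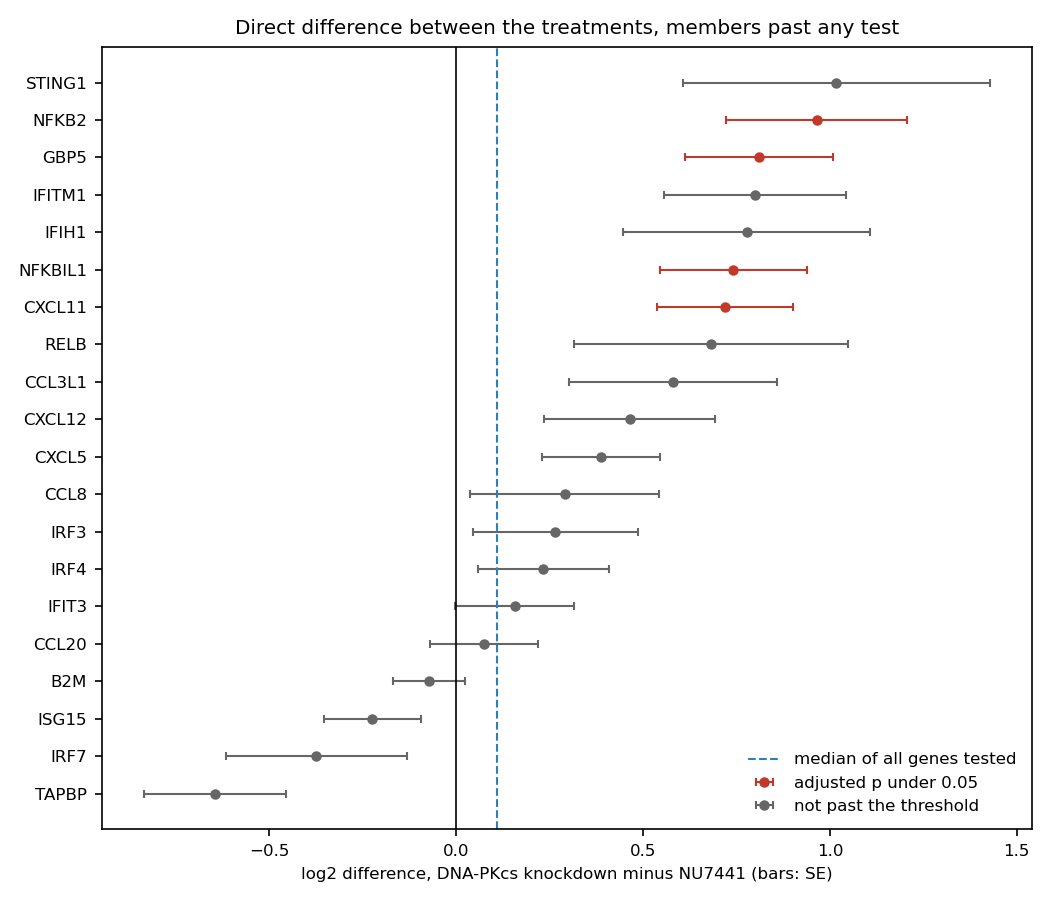
Log2 difference of knockdown minus NU7441 (horizontal axis, bars are moderated SE) for the 20 members that passed at least 1 of the comparisons; the dashed line is the median of all genes. NFKB2, GBP5, NFKBIL1 and CXCL11 passed, TAPBP has the lowest difference, and B2M lies close to 0.

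Other genes of the same pathways, taken from lists written with earlier results of these data known, gave 0 calls after knockdown; at an unadjusted p under 0.05 limma placed 5 of them higher and 15 lower, which is 5.68% and 17.0% of 88 against 6.68% and 12.9% of all genes. Under NU7441 9 of these 88 genes rose and 19 fell, beside 10.8% and 22.4% of all genes. At an unadjusted p under 0.05 limma placed 13.6% of the 88 higher and 29.5% lower, against 14.6% and 31.3% of all genes. The shares of the 88 under NU7441 were thus no higher than those of all genes. By list, 1 of 8 interferon receptor and signalling genes rose under NU7441 and 0 fell. That gene was IFNGR2, a chain of the interferon-gamma receptor, at 145 and 129 on the NU7441 arrays and 75.9 and 74.6 on the control arrays (0.86 ± 0.20, adjusted p = 0.0130). JAK1 read 22.8 and 28.8 after knockdown, 22.6 and 32.7 under NU7441, and 31.8 and 35.5 in controls, under the median of tested genes throughout. Of 14 nucleic acid sensing genes 1 rose and 6 fell. DHX36, a helicase of G-quadruplexes also described as an RNA sensor, read 583 and 545 after knockdown, 132 and 467 under NU7441, and 641 and 705 in controls (NU7441 −1.44 ± 0.44, adjusted p = 0.0321), so that 1 NU7441 array carried most of the difference. Also lower were XRCC5, which encodes Ku80 (−1.43 ± 0.14), and TICAM1, the adaptor of TLR3 (−1.35 ± 0.42), while TRIM25, a ubiquitin ligase that assists RIG-I, rose (0.75 ± 0.19).

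Among 20 further interferon-induced genes 0 rose and 3 fell under NU7441, namely LAMP3 (−1.33 ± 0.23), XAF1 (−1.16 ± 0.24) and EPSTI1 (−0.77 ± 0.15). Beside these and the other list counts stand 10.8% of all genes higher and 22.4% lower. Each single list, here and above, is too small to compare shares. Of 9 antigen processing genes 3 rose and 2 fell. ERAP1, which trims peptides for class I molecules, read 82.0 and 81.4 on the NU7441 arrays and 42.9 and 43.9 on the control arrays (0.91 ± 0.22, adjusted p = 0.0135). RFXANK, a subunit of the factor that binds MHC promoters, rose (0.63 ± 0.18), as did the protease gene CTSL (0.48 ± 0.15). The RFXANK partner RFXAP fell (−0.86 ± 0.28), and the chaperone calnexin, CANX, fell (−0.62 ± 0.12). Of 19 NF-kB pathway genes 3 rose and 5 fell. BCL3, a nuclear partner of p52, was lower at 36.1 and 46.8 on the NU7441 arrays against 92.2 and 80.9 on the control arrays (−1.07 ± 0.23, adjusted p = 0.00948). CHUK, the kinase IKK-alpha, fell (−1.55 ± 0.50), with 16.6 and 61.8 on the NU7441 arrays against 93.9 and 94.0 on the control arrays, and TRAF5 fell (−1.07 ± 0.23). SQSTM1 (0.98 ± 0.14), CYLD, a deubiquitinase that restrains NF-kB (0.77 ± 0.21), and TAB2 (0.51 ± 0.17) rose. Of 18 chemokine receptors and remaining chemokines 1 rose and 3 fell, with ACKR3, a scavenging receptor for CXCL12, at 549 and 597 on the NU7441 arrays against 311 and 291 on the control arrays (0.93 ± 0.14), and CX3CL1 at 88.7 and 36.3 against 306 and 322 (−2.47 ± 0.34). CCR10 (−0.81 ± 0.26) and CXCR1 (−0.66 ± 0.15) fell as well.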

How the data were processed

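RNA of 6 cultures was amplified to cDNA, labelled with biotin and hybridised to arrays, per the labels' protocols. Each array has 1 linear intensity per probeset as deposited; how the authors summarised and normalized it, and the build, is not given in the sources used here. The design assumed log2 of these values, taken here with no further scaling. Of 44629 probesets 15835 had 1 gene symbol, 0 several, and 28794 were unnamed here and left out; all 15835 gene identifiers matched the GRCh38.p14 gene table. The brightest probeset stood for a gene.

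Differences were tested two-sided with limma 3.58.1 in R 4.3.3, in 1 model over 6 arrays (3 residual degrees of freedom, mean-variance trend) with Benjamini-Hochberg adjustment over 14812 genes. The procedure was also run on simulated data with the same spread in all groups. That run does not cover the unequal spread of these groups. With 2 arrays per group, the number of arrays limits the precision. Members and lists were chosen with earlier results of these data known. Array values are given for members past the threshold whose highest group mean exceeds the median of tested genes, and for the 2 brightest in control of each role. Of the other pathway genes, at most the 3 highest and 3 lowest that passed in a list are named, and JAK1. Alternatives were quantile normalization, median centring, 16 taken off with 1 added, dim genes left out, the mean of all probesets, no trend, the compared groups alone, a replicate block and each array left out. No member met the criteria for a separate closer look. Within groups the SD of log2 values had a median of 0.139 for knockdown, 0.215 for NU7441 and 0.087 for control, so a shared spread may be too small for NU7441.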

Additional observations from a re-analysis of the deposited data

How the results depend on the processing

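Under NU7441 the 4 members called higher kept their call under all alternatives except the loss of a control array, and their count was 7 after quantile normalization, 11 after median centring and 2 to 9 with 1 array left out. The 15 called lower became 9 after quantile normalization, 6 after median centring, 9 with 16 taken off and 1 added, 9 with dim genes left out, and 0 to 22 with 1 array left out. Of the 15, the first of these settings kept 9 and the second 6. After knockdown the 1 member called higher became 3 with median centring, 0 without the trend, 4 with the compared groups alone and 0 to 4 with 1 array left out; the 0 called lower became 7 with the compared groups alone and 0 to 7 with 1 array left out. For knockdown against NU7441 the 4 called higher became 2 after quantile normalization, 0 with median centring, 2 with 16 taken off, 3 with dim genes left out (2 of the 4 and IFITM1), 1 without the trend, 0 with the compared groups alone, 1 with the replicate block and 0 to 15 with 1 array left out; the 0 called lower became 1 after quantile normalization, 2 with median centring, 1 with dim genes left out, 1 with the mean of all probesets, and 0 to 5 with 1 array left out. No called fold change reversed its sign in any of these analyses. Where an array was left out, the lone array was assumed to vary like the other groups, and the all-gene counts moved too, from 1605 higher and 3312 lower to 400 and 651 without control replicate 1. Shares of all genes moved with the settings as well. Under NU7441 they were 10.8% higher and 22.4% lower in the main analysis, and 14.3% and 13.8% after quantile normalization. After median centring they were 20.1% and 9.54%. For knockdown the compared groups alone called 6.89% higher and 12.3% lower, against 0.284% and 0.486% in the main analysis. For knockdown against NU7441 the share higher was 5.83%, and 4.19% with median centring. The cause of these shifts was not tested. Same-numbered arrays did not deviate together (correlations of −0.01 for both treatments with control and −0.07 between them), so no pairing by number was seen. With 2 arrays per group these values cannot show that the samples were not handled in pairs. The block left 5 members higher and 15 lower under NU7441, and 1 and 0 after knockdown. Intensities near 16 limit what can be said of dim members in either direction.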
